A study of Mus musculus with 37 samples.

Results

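The response of bone marrow neutrophils to IL-10 alone was described from genes whose normalized tag value reached 10 in either the untreated or the IL-10 group, with transcripts summed per gene name. Of 6509 genes in the table, 5829 were kept, and they come from 4 of the 37 samples of the series. The study covered neutrophils and 4 more myeloid cell types (eosinophils, mast cells, macrophages and dendritic cells of the spleen, or sDCs), gave them IL-10, lipopolysaccharide (LPS, a bacterial endotoxin), or IL-10 and then LPS, with only LPS for eosinophils, and measured RNA by sequencing. The neutrophils came from C57Bl6cJ mice, with marrow from several animals pooled, were purified on a Percoll step gradient, and spent a night in GM-CSF before any treatment, so the untreated group had also seen GM-CSF. The ages of the mice are not given in the labels.

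The IL-10 group received 100 ng/ml for 4 h and no LPS, and the untreated group received neither. Where LPS is mentioned, it was given at 100 ng/ml for a further 4 h, so the LPS groups were also cultured for longer. Each group had 2 libraries from independent mice. The table holds only the authors' mean of the 2, so there is 1 value per group, the spread between libraries is not known, and no test of a difference was possible. The depth of each library is not in the table. A gene was called raised or lowered where log2((IL-10 + 1)/(untreated + 1)) reached 1 or -1, a 2-fold change, and these calls have no replicate check. Values are whole or end in 0.5, and they serve to compare a gene with itself and not with another gene, because they are not divided by transcript length.

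IL-10 binds a receptor of 2 chains, Il10ra and Il10rb, whose kinases Jak1 and Tyk2 phosphorylate STAT3, and STAT3 then drives the genes through which IL-10 quiets inflammatory cells. In neutrophils and macrophages the cytokine is best known for holding down what LPS induces, and the comparison here asks what it does to cells that have seen no LPS. Interferons signal through other members of the STAT family and drive a different set of genes, among them the guanylate-binding proteins (Gbp) and the immunity-related GTPases (Igtp, Irgm1, Irgm2, Ifi47, Tgtp1 and Tgtp2), which attack the vacuoles of intracellular microbes.

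With IL-10 alone, 65 genes (1.12% of those kept) were raised and 38 (0.652%) were lowered. The raised genes held a block of interferon-inducible GTPases led by Gbp2, which stood at 78 untreated and 1484 with IL-10, an 18.8-fold difference. They also held a second group, defined by being raised by IL-10 in the presence of LPS as well. It held the signalling kinase Jak3 (272 and 1194) and the interleukin 1 co-receptor Il1rap (2367 and 7270.5). The secreted granule glycoprotein Lrg1 (3305.5 and 9986.5) also belonged to it. When IL-10 was given before LPS, in libraries that the first comparison did not use, the interferon-inducible genes were lower than with LPS alone. Of the 62 raised genes that could be compared there, 30 were raised again and form the second group. Another 17 were lowered and 15 did neither.

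The promoters of the interferon-inducible genes are shown first, because a short motif of each of 2 kinds separated the groups of raised genes described below. A promoter was the stretch from 450 bases before to 50 bases after the start of the gene's most abundant transcript, on the mouse build NCBIM37 (mm9) with the GENCODE vM1 annotation. TTCNNNGAA is the general motif of STAT proteins, through which interferons also signal, and reads the same on both strands. GAAA followed after any 2 bases by GAAA was searched on both strands and is here called the paired GAAA motif. It is the core of an element that interferons act through. Shown are the 4 raised genes with the highest value with IL-10 among those whose promoter held TTCNNNGAA, with 40 bases on either side where the start site allows. Capitals mark every match to that motif within the stretch. All 4 stretches are on the plus strand, upstream of the start site and so outside the transcript. They are chr11:53583386-53583474 for Irf1, chr11:58012973-58013057 for Igtp, chr3:142193154-142193242 for Gbp7 and chr11:58028364-58028452 for Irgm2.
Irf1: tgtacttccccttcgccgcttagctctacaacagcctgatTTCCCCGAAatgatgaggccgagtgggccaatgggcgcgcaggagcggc
Igtp: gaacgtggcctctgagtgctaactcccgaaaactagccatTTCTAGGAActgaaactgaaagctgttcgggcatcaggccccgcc
Gbp7: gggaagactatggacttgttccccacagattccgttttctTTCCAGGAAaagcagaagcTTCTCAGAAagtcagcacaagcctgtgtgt
Irgm2: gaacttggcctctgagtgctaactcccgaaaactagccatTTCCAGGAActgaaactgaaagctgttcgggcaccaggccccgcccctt

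The motif began 90 bases before the start site of Irf1, which encodes the interferon regulatory transcription factor 1, and 45 before that of Igtp. It began 108 bases before the start of Gbp7, with a second match 89 before it, and 126 before that of Irgm2. The Igtp and Irgm2 stretches are near-identical over much of their length, as paralogous neighbours on chromosome 11, and count as related sequences. In both, the paired GAAA motif follows within the stretch shown, as gaaactgaaa. Rtp4, a chaperone-like protein for surface receptors that interferons induce, had no TTCNNNGAA but 4 matches to the paired GAAA motif, and was added after its values had been seen. Its stretch is chr16:23609911-23610004 on the plus strand, with that motif in capitals, where neighbouring matches may overlap.
Rtp4: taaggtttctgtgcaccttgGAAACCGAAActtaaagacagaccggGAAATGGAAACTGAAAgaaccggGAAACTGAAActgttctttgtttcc

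The neutrophil label was checked against 11 neutrophil marker genes in the table. In the untreated groups of the 5 cell types, 10 of the 11 were highest in neutrophils. The chemokine receptor Cxcr2 stood at 52728 there and at most 1265 elsewhere, the collagenase Mmp8 at 122455 and at most 1362.5, and the elastase Elane at 13402 and at most 1767.5. The exception, Ly6g, was at 161.5 in neutrophils and 188.5 in eosinophils. Of these markers only Lrg1 was raised and none was lowered by IL-10, against 1.12% and 0.652% of all kept genes.

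Markers of other cell types were present in both groups. The summed value of 10 macrophage and monocyte markers was 34327.5 untreated and 34362.5 with IL-10, with Marco and Timd4 listed at 0 in both. For 6 B cell markers the sums were 7340.5 and 7439, for 3 T and NK cell markers 48.5 and 53.5, and for 6 dendritic cell markers 4343.5 and 3505. The sums of 3 eosinophil markers were 20597.5 and 20262.5, of 9 erythroid and megakaryocyte markers 14941.5 and 14544.5, and of 3 mast cell markers, with Tpsab1 listed at 0 in both groups, 3906.5 and 3703. Within these lists 2 genes were raised and none was lowered, against 1.12% and 0.652% of all kept genes. In such bulk samples a change in the share of a cell type and a change in RNA per cell cannot be told apart.

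Most genes sat close to their untreated value. All 18 group columns share the same maximum, so the normalization may have set part of this closeness, which was not tested. The median log2 change over the 5829 genes was -0.03 and the median size of a change, whatever its sign, was 0.10. Low values scattered more: of 641 genes whose higher value lay between 10 and 50, 21 were raised and 35 lowered. From 50 to 200 it was 16 raised and 3 lowered of 914 genes. Above that, 14 of 2054 genes between 200 and 1000 were raised, 14 of 2220 genes at 1000 or more were raised, and none was lowered. Among the raised genes 16 had an untreated value under 10, so they were kept only through the group where they were high, and Pkd1l3 and Gja6 were listed at 0 untreated. Among the lowered genes 27 had a value under 10 with IL-10.

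**Figure D1:**
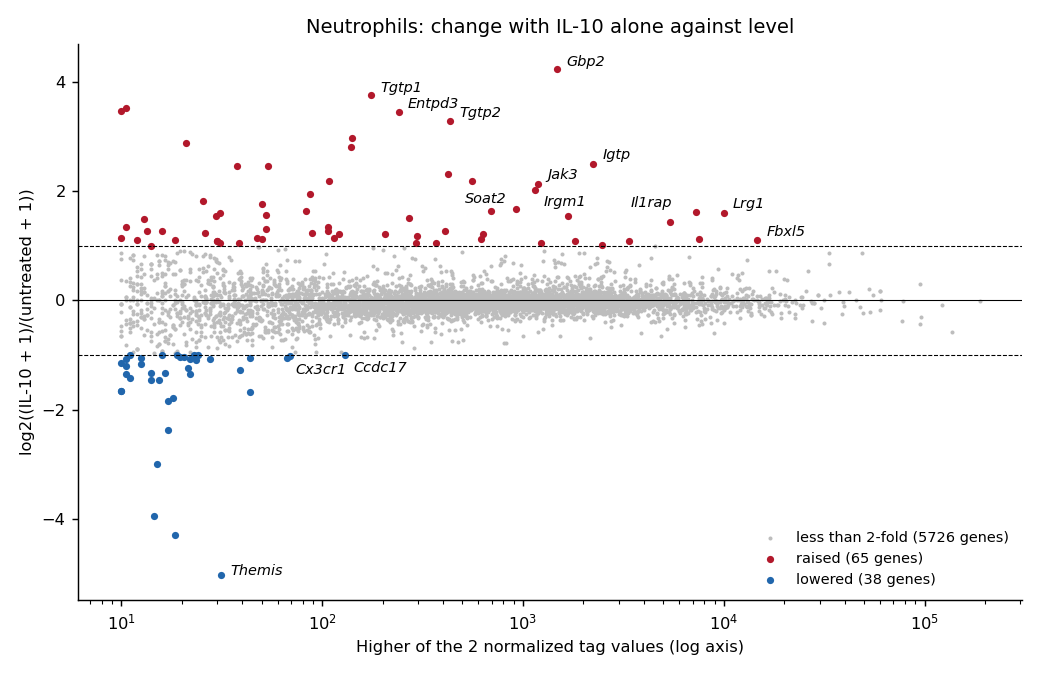
Each point is 1 of 5829 genes, with the higher of its untreated and IL-10 values on a log axis and its log2 change with IL-10 on the vertical axis. Dashed lines mark 2-fold; red points (65 genes) spread over all levels, while blue points (38 genes) lie below 200 and mostly below 50. The 5 genes listed at 0 in one group are placed by the added 1 and have no fold.

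The threshold cut through a continuous range. Just inside it lay Trim30b, of the TRIM family, at 1225.5 untreated and 2475 with IL-10, and Msh4 at 6.5 and 14. Just outside lay Junb, an AP-1 subunit, at 2278 and 4548.5 (log2 change 0.997), and Ugt1a1 at 24 and 48.5. On the other side 2010204K13Rik sat at a log2 change of -1, and 2510046G10Rik and Cmtm4 missed it at -0.97 and -0.96. At 1.5-fold the numbers were 173 raised and 151 lowered.

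Of a list of 69 interferon-induced genes, 37 were in the table and 35 were kept. IL-10 alone raised 12 of the 35 and lowered 1, against 1.12% and 0.652% of all kept genes, and the median log2 change of the 35 was 0.68 against -0.03. The 22 others ranged from -0.76 to 0.93, and 16 of them were above 0.

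The guanylate-binding proteins held the largest difference. Gbp2 was 78 untreated, 1484 with IL-10, 2595 with LPS and 610 with IL-10 and LPS, so its value with IL-10 alone was more than with IL-10 and LPS together. Gbp5, which also takes part in inflammasome assembly, was 85, 425, 2313.5 and 1013.5 in the same order. Gbp7 was 856.5, 1825.5, 3662 and 1154.5, and Gbp3, which missed the threshold at a log2 change of 0.93, was 105.5, 201.5, 742 and 320.5. All 4 were thus higher with IL-10 than untreated, and lower with IL-10 and LPS than with LPS alone. They are related sequences, and how tags were split among them is uncertain.

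The immunity-related GTPases followed the same course. Igtp (Irgm3) was 396 untreated, 2237 with IL-10, 3663.5 with LPS and 1439.5 with both. Irgm1, a regulator of the family and of autophagy, was 282.5, 1147, 4688.5 and 1712.5. Irgm2 was 574, 1679, 3593 and 1536.5, and Ifi47 was 220, 690.5, 2270.5 and 829. Tgtp1 (12, 175, 250 and 90.5) and Tgtp2 (43.5, 435, 1361.5 and 391.5) were not on the list but belong to the family, and they are near-identical neighbours, so how their tags were split between them is uncertain. The guanylate-binding proteins and the immunity-related GTPases were grouped together after their values had been seen. Of the 10 kept members of this joint group, 9 were raised, against 1.12% of all kept genes, and Gbp3 was not.

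Of Irf1, Stat2, Irf2, Irf3 and Irf5, signalling and transcription genes of the interferon pathway, only Irf1 was raised. Irf1 was 1577 untreated and 3356 with IL-10 (log2 change 1.09). Stat2, of the complex that type I interferon activates, was 1135 and 1447 (0.35), and Irf2, Irf3 and Irf5 lay at 0.15, 0.05 and -0.16. The oligoadenylate synthetases, which sense double-stranded RNA, were mixed: Oas2 was 272.5 and 633, Oasl1 was 20.5 and 52.5, Oas1a was 149.5 and 158.5, and Oas1g was lowered from 14 to 5. Zbp1, a sensor of Z-form nucleic acid, was 284.5 and 619.

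Some other genes that type I interferon induces were not raised. Ifit1 was 21 untreated and 12 with IL-10, and Ifit2 was 140 and 133.5, although LPS alone brought them to 8220 and 2532. Usp18, a deubiquitinase that dampens the interferon receptor, was 22.5 and 29, and stood at 5871.5 with LPS. Bst2, Daxx and Samhd1 lay between -0.03 and 0.04 on the log2 scale. The list thus divided, but not cleanly by kind of gene. Most of its GTPases, Irf1, Oas2, Oasl1 and Zbp1 were raised, while Gbp3, Ifit1, Ifit2 and Usp18 stayed below 2-fold. The interferon receptor chains had close values in both groups (Ifngr1 2627 and 2533.5, Ifngr2 3405 and 3712, Ifnar1 2436 and 2571, Ifnar2 2664.5 and 2870).

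**Figure D2:**
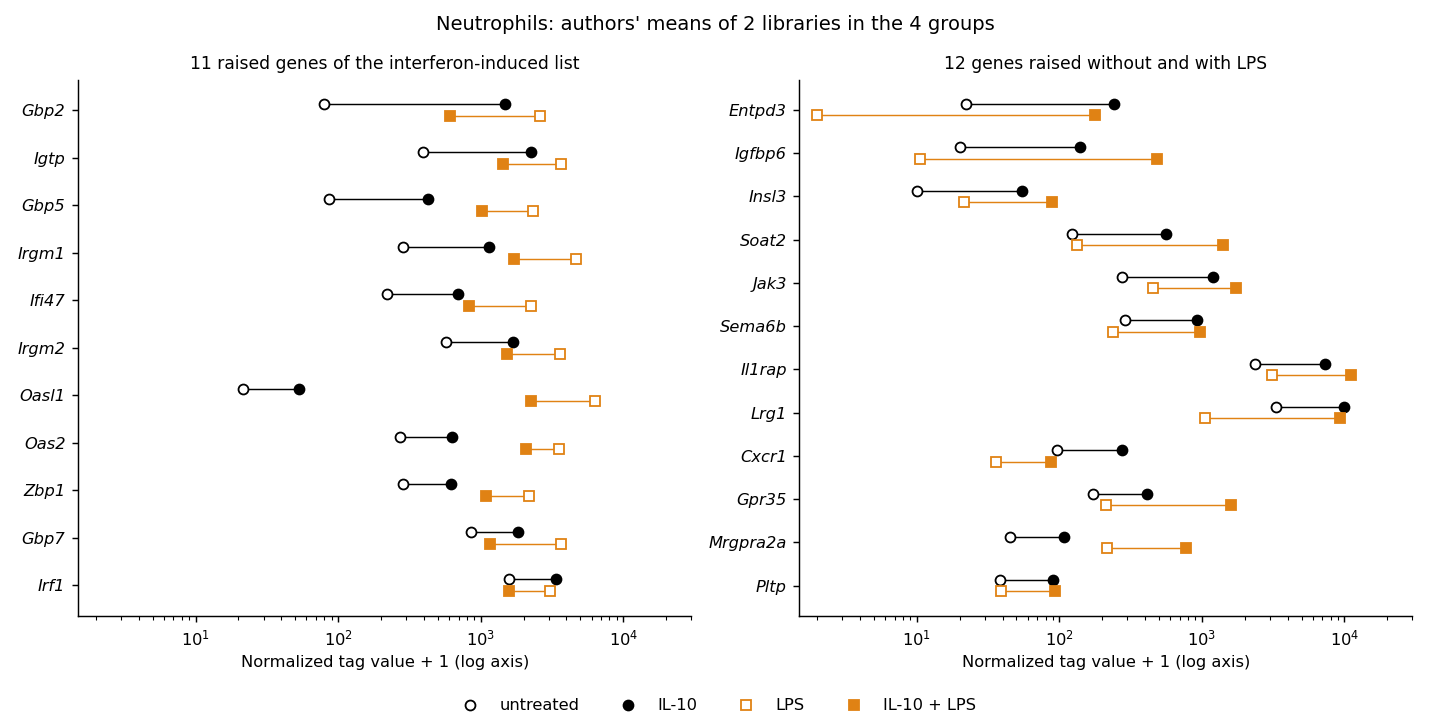
Values plus 1 on a log axis, each the authors' mean of 2 libraries, with circles for the groups without LPS and squares for those with it; open symbols are without IL-10 and filled ones with IL-10. In the left panel (11 raised genes of the interferon-induced list) the filled circle lies right of the open circle and the filled square left of the open square in all 11 genes; in the right panel (12 genes raised without and with LPS, IL-10 value 50 or more) filled symbols lie to the right in both pairs.

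Whether the calls recur in other libraries was asked of the cells treated with LPS, comparing IL-10 and LPS with LPS alone. That comparison shares no library with IL-10 against untreated. Over the 5759 genes kept in both, 2.78% were raised and 2.99% lowered there. Of the 62 raised genes kept in both, 30 were raised there too, which is 48.4% of the 62 and 18.8% of the 160 genes raised in the presence of LPS. Another 17 of the 62 (27.4%) were lowered in the presence of LPS and 15 did neither. Of 29 lowered genes kept in both, 10 (34.5%) were lowered again, 1 was raised and 18 did neither, and the 10 are 5.81% of the 172 genes lowered there.

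The 17 genes with opposite calls included 9 of the 12 raised interferon-list genes, and the other 3 did not reach 2-fold with LPS but lay below 0, with Irf1 at -0.97 and Oas2 at -0.76. None of the 30 genes raised under both conditions was on that list. Over all 35 kept list members, 24 were lowered and none was raised by IL-10 in the presence of LPS, with a median log2 change of -1.21. Among all genes kept in both comparisons, 2.99% were lowered and 2.78% raised. Zbp1 was at exactly -1, the edge of the call. The remaining 8 of the 17 were Tgtp1, Tgtp2, Rtp4 (17 untreated and 140.5 with IL-10, then 2495.5 with LPS and 983 with both), Serpina3f (26 and 83.5, then 224.5 and 101.5), Klra17 (14 and 50, then 21.5 and 4.5), Amy1, Lrp11 and Pkd1l3. Serpina3f and Klra17 belong to families of close copies, which makes their split of tags uncertain, and Amy1, Lrp11 and Pkd1l3 had no value over 50 in the 4 groups.

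**Figure D3:**
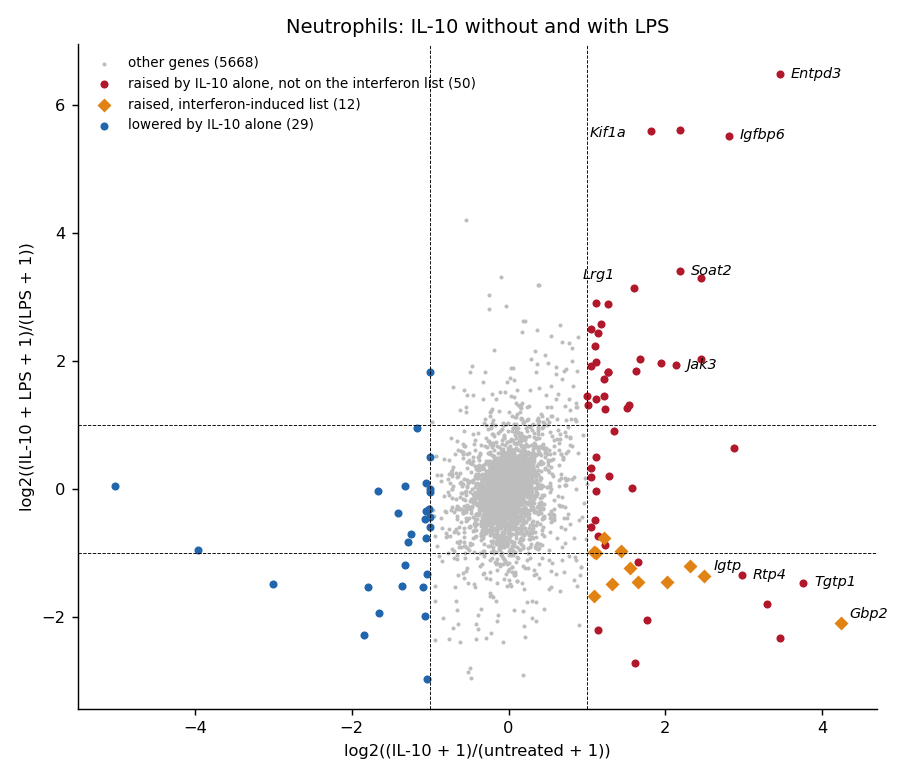
Log2 change with IL-10 alone (horizontal) against log2 change with IL-10 in the presence of LPS (vertical) for 5759 genes in neutrophils. All 12 raised genes of the interferon-induced list (orange diamonds) lie below 0 on the vertical axis; 30 of the 50 other raised genes (red) lie at or above the upper dashed line, and dashed lines mark 2-fold.

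The 30 genes raised by IL-10 both without and with LPS had a median log2 change of 1.27 without LPS and 2.01 with it. Entpd3, an ectonucleotidase that removes phosphate from extracellular ATP, was 21 untreated and 240.5 with IL-10, and 1 with LPS and 177.5 with both. It was thus highest in the groups with IL-10 and lowest with LPS alone. Among macrophage markers, Emr1 (F4/80) stood at 4346 and 4305.5, Cd68 at 2788 and 3319, and Cd163 at 9.5 and 8.

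Secreted factors were among the larger rises. Igfbp6, which binds insulin-like growth factor II, was 19 untreated and 139 with IL-10, and 9.5 with LPS and 480.5 with both. Insl3, an insulin-family peptide, was 9 and 54, and then 20.5 and 87.5. Its gene lies within the annotated span of Jak3 on the same strand, so how tags were split between Insl3 and Jak3 is uncertain. Timp1, an inhibitor of matrix metalloproteinases, was 6 and 37.5, and then 137.5 and 1366. Timp1 was raised alongside the metalloproteinase Mmp19, which was 177 and 369, and 181.5 and 1029.5, whereas Mmp8, Mmp9 and Mmp25 lay at -0.08, 0.30 and 0.22 with IL-10 alone. Lrg1 was 3305.5 and 9986.5, and 1053.5 and 9291, and so had close values in both groups with IL-10. Saa3, an acute-phase apolipoprotein, was called at low values (5 and 13.5), and stood at 4125.5 with LPS and 14657.5 with both.

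Of 27 kept cytokine and chemokine receptors, 4 were raised (Il1rap, Il13ra1, Il15ra and Cxcr1) and 1 lowered (Cx3cr1), against 1.12% and 0.652% of all kept genes, with a list median of 0.01 against -0.03. All of the 4 but Il15ra were also raised in the presence of LPS. Il1rap, shared by the receptors for IL-1, IL-33 and IL-36, was 2367 untreated and 7270.5 with IL-10, and 3083.5 with LPS and 11108.5 with both. Il13ra1, a chain of the receptor for IL-13 and IL-4, was 3468 and 7528.5, and then 1053.5 and 4190. Cxcr1 was 94.5 and 272, and then 35 and 86, while the related Cxcr2 was 52728 and 59650 (log2 change 0.18) without LPS. Il1r2, the decoy receptor for IL-1, missed the threshold at 18376.5 and 33488.5 (0.87) and was 3350.5 and 8186 with LPS (1.29).

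Of 16 kept genes of the IL-10 receptor and JAK-STAT list, 2 were raised, against 1.12% of all kept genes. Jak3, the kinase bound to the common cytokine receptor gamma chain, was 272 and 1194 (4.38-fold), and 454.5 and 1738 with LPS. All 5 of its kept transcripts were raised. The receptor chains Il10ra (2380 and 2770.5) and Il10rb (2034.5 and 2103.5) and the kinase Tyk2 (1591 and 1368) were within a log2 change of 0.22 of their untreated values. The GM-CSF receptor's shared chain Csf2rb was 26721 and 48559 (0.86) and its copy Csf2rb2 was 6277 and 9348 (0.57). None of 9 kept feedback inhibitors and PIM kinases was called, where 1.12% of all kept genes were raised and 0.652% lowered. Pim2 (1005.5 and 1603.5) lay at 0.67 and Cish (16004.5 and 17884) at 0.16.

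Lipid-handling genes held 2 raised members of 31 kept, against 1.12% of all kept genes, and the list median was 0.00. Soat2, which esterifies cholesterol, was 122.5 untreated and 560.5 with IL-10, and 131 with LPS and 1397 with both. Pltp, a phospholipid transfer protein, was 37.5 and 89.5, and 38 and 92. The cholesterol exporter Abca1 was 152.5 and 148.5 with IL-10 alone, but 764.5 and 5570.5 in the presence of LPS (2.86).

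Genes already known as targets of IL-10 or STAT3 were mostly under the threshold. Of 36 listed, 18 were in the table, 16 were kept, 13 were above 0, and only Mmp19 was raised, against 1.12% of all kept genes, with a median of 0.38 against -0.03. Junb, at 0.997, and Il1r2, at 0.87, came closest to the threshold, and Junb passed it (1.03) when changes were centred on their median. Sbno2, a corepressor that STAT3 induces, was 3894.5 and 6729 (0.79). Arid5a was 1774 and 2587.5 (0.54), and Hmox1, heme oxygenase 1, was 2258 and 3233 (0.52). These are gene sums, and 1 of 2 Sbno2 transcripts reached 2-fold (418.5 and 881, 1.07). So did 3 of 9 in Arid5a and 1 of 2 in Hmox1. The paper, working with transcripts, lists Sbno2 as raised by IL-10 in each cell type that responded to it. Ier3, Cebpb, Trib1 and Tarm1 lay between 0.35 and 0.42, and Bcl6 at 0.22. Inpp5d, Fos, Myc, Vav3 and Abca1 lay between -0.24 and 0.02. Il10 itself was listed at 1.5 and 0.5, under the minimum value, and reached 1601 with LPS. In the presence of LPS, 5 of the 16 were raised and Hmox1 was lowered (77414 with LPS and 35953.5 with both). Over all genes kept in both comparisons, 2.78% were raised and 2.99% lowered there. Socs3 and Bcl3 were not analysed here.

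Tags of a gene are apportioned among overlapping transcripts, and this apportioning was less steady than the gene sums. Of the 65 raised genes, 24 had more than 1 transcript at 10 or more. In 19 of the 24 all of these were above 0, in 9 every one was raised, and in 4 at least 1 was lowered. Irgm1 was the clearest case: 1 transcript went from 210.5 to 2.5 and another from 0 to 804.5, although the gene sum went from 282.5 to 1147. In Fbxl5, the iron-sensing subunit of a ubiquitin ligase, chosen here after its values had been seen, the gene sum went from 6809.5 to 14702.5 and 1 transcript from 0 to 2211.5. Gbp5, Igtp, Oas2, Il1rap and Jak3 had every such transcript raised. Taken by the most abundant transcript alone, Irf1 (0.90), Oasl1 (0.86), Pltp (0.80) and Zbp1 (0.73) missed the threshold.

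The same contrast in 3 other cell types uses no neutrophil library. Of the raised neutrophil genes, 24 of 55 kept in both were raised in macrophages (1.67% of all genes were), 17 of 56 in sDCs (1.25%) and 12 of 51 in mast cells (1.89%). The shared genes are 26.1%, 24.3% and 11.8% of the genes raised in those cells. Counted by gene, 28 of the 65 were raised in none of the 3, 22 in 1, 14 in 2 and 1 in all. A gene under 10 in both groups of a cell type could not be called there and counts as not raised. The same count over all kept genes was not made. The gene raised in all, Sema6b, is named after its values had been seen. Sema6b, a transmembrane semaphorin, was 288.5 untreated and 924 with IL-10 in neutrophils. The lowered genes recurred in 2 of 24 genes in macrophages (1.34% of all genes were lowered there), none of 25 in sDCs (0.482%) and 6 of 24 in mast cells (1.78%).

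Macrophages were the cells in which the interferon-list genes recurred most. Of the 12 raised in neutrophils, 10 were raised in macrophages, with a median log2 change of 1.92, 3 in sDCs (median 0.63) and none in mast cells (0.08). Gbp2 stood at 1164.5 and 8823.5 in macrophages, 16587 and 15813 in sDCs and 439.5 and 541.5 in mast cells. The sDC value was thus high without IL-10. Oasl1 and Oas2 were the exceptions in macrophages, at log2 changes of 0.09 and 0.71. Whether the cell types differ in these changes could not be tested with 1 value per group.

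**Figure D4:**
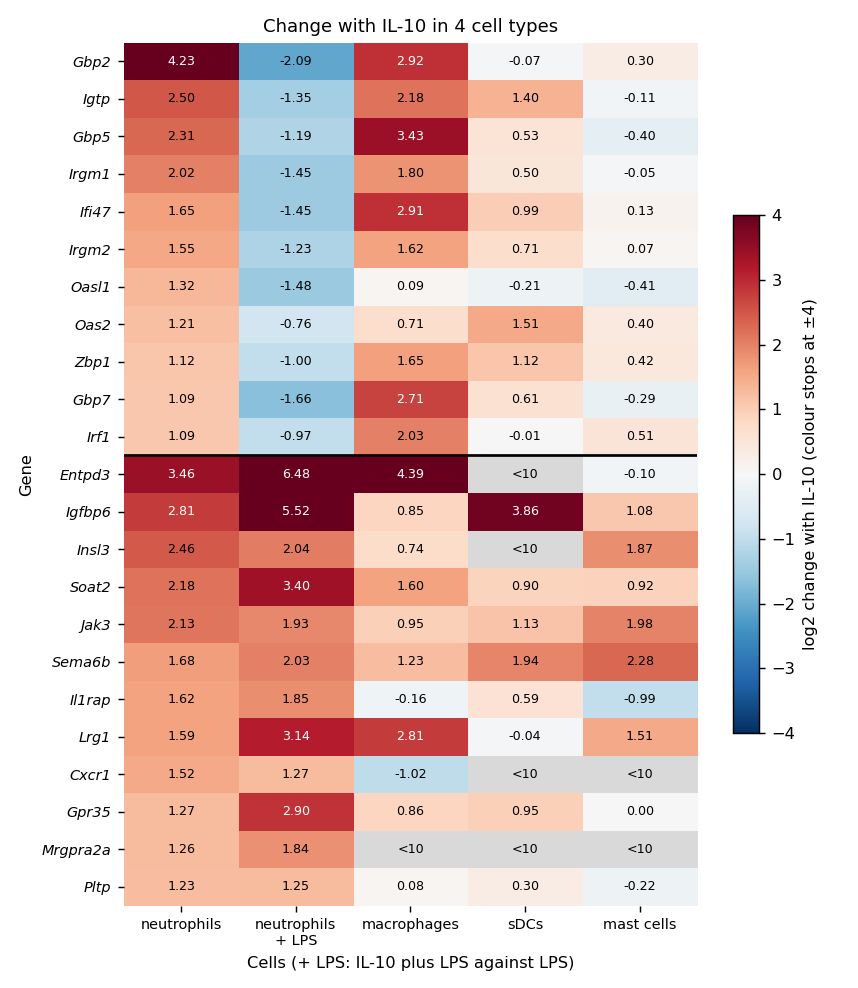
Log2 change with IL-10 for 11 raised genes of the interferon-induced list (above the line) and 12 genes raised both without and with LPS (below it), in neutrophils without and with LPS, macrophages, sDCs and mast cells without LPS. Grey cells marked <10 had no value of 10 or more; the interferon block is red in neutrophils, red but for Oasl1 in macrophages, blue in neutrophils with LPS and pale in mast cells.

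The promoter motifs divided along the line drawn by LPS. TTCNNNGAA was found in 12.5% of the promoters of 5824 kept genes with an annotated start and the paired GAAA motif, searched after the values had been seen, in 6.65%. Of the 17 raised genes that were lowered with LPS, 10 promoters held TTCNNNGAA (58.8%) and 13 held the paired GAAA motif (76.5%), and 9 held both. Of the 30 genes raised under both conditions, 2 held the first (6.67%) and 3 the second (10%), and none held both. In the 38 lowered genes the shares were 7.89% and 10.5%. Matches to both motifs shared bases in 2 raised promoters. Igtp, Irgm2, Tgtp1, Tgtp2, Irgm1 and Ifi47 lie on chromosome 11 and Gbp2, Gbp5 and Gbp7 on chromosome 3, in families of related sequence, so their promoters are not independent. A match describes the letters of the window and does not show that a factor was bound there.

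**Figure D5:**
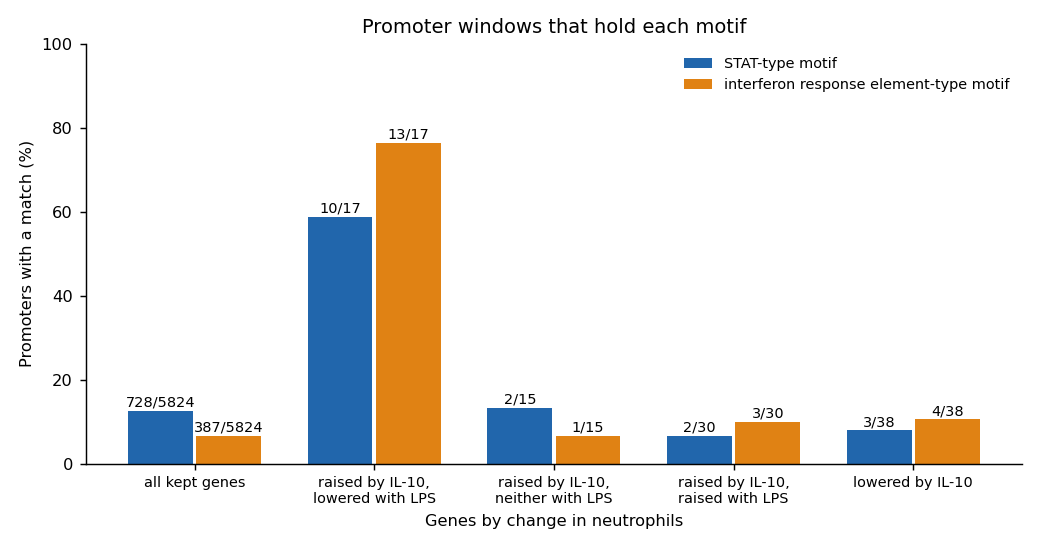
Bars give the percent of promoter windows, 450 bases before to 50 after the start site, with at least 1 match to the STAT-type or the interferon response element-type motif (the paired GAAA motif), starting at 0; counts stand above the bars. The genes raised by IL-10 alone but lowered by it with LPS stand at 10/17 and 13/17, and the other sets drawn stay under 15%. Not drawn are the 3 raised genes under 10 with LPS.

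The lowered genes were few and low. Only 3 of the 38 had a value of 50 or more: Cx3cr1, the fractalkine receptor of monocytes, at 66.5 untreated and 31.5 with IL-10, Efcab5 at 69.5 and 34, and Ccdc17 at 129.5 and 64. Their log2 changes were -1.05, -1.01 and -1.01, at the edge of the call, and none was lowered 2-fold by IL-10 in the presence of LPS. Next in size, and not called, came Yy2 (93.5 and 48), Mras (73 and 37.5), Col15a1 (124.5 and 64.5) and Cacnb2 (288 and 157.5). The other 35 called genes peaked under 50. Themis, a T-lineage signalling protein, was listed at 31.5 and 0, Ptchd1 at 18.5 and 0, and Fam65c at 14.5 and 0. With LPS and then with both, Themis stood at 11.5 and 12, Ptchd1 at 6 and 0, and Fam65c at 26 and 13.

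On the lists of granule proteins and oxidase genes, the effectors that define the neutrophil, no gene was called. Among all kept genes 1.12% were raised and 0.652% lowered, so lists this short may hold no call by those shares alone. Lrg1, the granule glycoprotein raised above, is not on these lists. None of 15 kept granule proteins reached 2-fold, with log2 changes from -0.09 (Elane, 13402 and 12583) to 0.39 (haptoglobin, Hp, 15147.5 and 19880.5). Chi3l3 cannot be read, since its main transcript was at the shared maximum of 185338 in all 4 neutrophil groups. Of 5 kept genes of the NADPH oxidase, which makes superoxide, Cybb, its catalytic subunit, was 94864 and 70312.5 (-0.43), and Noxo1, at low values, was 16.5 and 9.5 (-0.74). Rac2 was 45736 in both groups, Hvcn1 was 6281 and 5603.5, and Ncf4 was 6103 and 6563.5. The integrin subunit Itgam (CD11b), listed among neutrophil markers, was 136889 and 91667 (-0.58). Cybb and Itgam lay below -0.39, the 1st percentile of log2 changes among the 2220 genes at 1000 or more.

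Tnf and Il12b, inflammatory genes that IL-10 held down in the presence of LPS, stood far lower in the groups without LPS. Tnf was 2191 untreated and 2002 with IL-10, against 44593 with LPS and 11420.5 with both. Il12b was listed at 6 and 2, under the minimum value, against 13131 and 88.5. Among 17 kept interleukins and other inflammatory cytokines, Saa3 was the only call with IL-10 alone, where 1.12% of all kept genes were raised. In the presence of LPS 8 of 16 were lowered, against 2.99% of all genes kept in both comparisons. The 4 kept chemokines had a median of -0.50, with Ccl22 at 491 and 343.5 and Ccl17 at 999 and 635. With LPS present 3 of the 4 were lowered, against the same 2.99%. No pattern recognition receptor or adaptor of 24 kept, and none of 12 kept NF-kB subunits and inhibitors, was called with IL-10 alone. The shares over all kept genes were 1.12% raised and 0.652% lowered.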

How the data were processed

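The deposited values have the unit score. By the study's methods and the submitters' processing notes, the authors aligned reads to Ensembl 67 (mm9) transcripts with RSEM 1.2.1 and Bowtie 0.12.9, normalized tag counts for GC content with EDASeq, and deposited the mean of 2 replicates per group. All 18 group columns share the maximum 185338. Of 37 samples, 1 has no column and was not used. The copy used here held 17015 complete lines and 1 broken line. Of the complete lines 22 (0.129%) name no gene, which left 16993 transcripts of 6509 genes. Depth per library is unknown, so no counting interval was given.

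Transcripts were summed per gene, genes with a value of 10 or more in either group were kept, and log2 ratios were taken after adding 1, which understates the change of low genes. A 2-fold change was called, with no test. Lists are described by counts and medians. Promoters were read from NCBIM37 with GENCODE vM1, and no sequence of chromosome 18 was shown. Python 3.11.15, numpy 2.4.6, pandas 2.3.3 and matplotlib 3.10.9 were used, and the calling step was checked on simulated data. Named genes were the 15 largest rises and falls among genes with a value of 50 or more, list members changed 2-fold, known IL-10 targets and neutrophil markers. Other names, such as list members that were not called, were added with their values seen. The members and lists were chosen with earlier results of these data known. Values of some genes are not reported here, though counts include them.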

Additional observations from a re-analysis of the deposited data

How the results depend on the processing

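No paired analysis was possible because the table holds only means of the 2 replicates, and for the same reason leaving out a replicate was not possible. The number of raised genes stayed between 44 and 67 with a pseudocount of 0.5 or 10, a minimum value of 50, centring on the median and scaling to equal totals. The number of lowered genes depended on low values: it was 6 with a pseudocount of 10 and 3 with a minimum value of 50, against 38, and none (0 of 4 and 0 of 1) was then also lowered in the presence of LPS. With no minimum value 135 genes were raised and 111 lowered, and at 1.5-fold 173 and 151. Of 14137 single transcripts 881 were raised and 697 lowered, and 34.2% of those raised and kept with LPS were raised there too, against 48.4% of gene sums. For 78 named genes, the log2 change moved in 12 with a pseudocount of 10 and in 10 when the most abundant transcript stood for the gene, and no direction of a called gene reversed. By that transcript Irgm1 was at 9.65 in place of 2.02, the calls of Irf1 (0.90), Zbp1 (0.73) and Oasl1 (0.86), 3 of the 12 raised interferon-list genes, and of Pltp (0.80), Ccdc17 (-0.28) and Oas1g (-0.42) were lost, and Col15a1 reached -1. With a pseudocount of 10 the calls of Saa3, Trat1, Slc28a3, Cx3cr1, Efcab5, Ccdc17, Oas1g and Slc18a1 were lost. Centring brought Junb to 1.03 and took Efcab5 and Ccdc17 to -0.98. Since the values are normalized means, the spread between libraries, which would show whether any single 2-fold change exceeds it, is not known.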

Other observations

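Raised genes that IL-10 did not change 2-fold in the presence of LPS held 3 further members of lymphocyte-type cytokine systems, named here after their values had been seen. Il13, a cytokine of type 2 immunity, stood at 41.5 untreated, 107 with IL-10, 387 with LPS and 728 with both. Il2rb, a receptor chain for IL-2 and IL-15, stood at 17, 52.5, 32 and 32.5. Il15ra, the private chain of the IL-15 receptor, stood at 141, 293.5, 248.5 and 164.5. Of the 3 T and NK cell markers, Cd4 was at 35.5 untreated and 28 with IL-10, Zap70 at 9 and 12.5, and Trat1, which was called raised, at 4 and 13, and their part in these values was not tested.

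On the normalized scale, housekeeping systems lay close to their untreated values. None of the 15 cytosolic ribosomal protein genes, 48 respiratory chain and ATP synthase genes, 17 proteasome subunits, 27 mitochondrial ribosomal proteins and 21 kept cell cycle and replication genes was called, and their median log2 changes lay between -0.07 and -0.02, against -0.03 over all genes. The 22 kept glycolysis and hypoxia genes, 23 lysosome and autophagy genes, 18 heat shock and unfolded protein response genes, 15 apoptosis and survival genes, 13 antigen presentation genes and 8 Fc and complement receptors also held no call. Over all kept genes 1.12% were raised and 0.652% lowered, so a short list may hold no call by those shares alone. Among 102 kept solute carriers, Slc28a3 was raised and Slc18a1 lowered, against the same shares. Of 26 kept adhesion and migration genes, Mmp19 and Timp1 were raised, against 1.12% of all kept genes.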
